A study of Mus musculus with 9 samples.

Results

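The genes described are 45 genes of mitosis and the spindle checkpoint, chosen by name with earlier results of these data known. All 45 were found among the 12842 genes of the table. They cover the cyclins and phosphatases of mitotic entry, the mitotic kinases, the chromosomal passenger complex, the spindle checkpoint, the genes of anaphase onset, the kinetochore, the kinesins and the spindle midzone, cytokinesis, and chromosome structure. RNA was measured by sequencing of polyadenylated RNA in cultured NPK cells, in 3 groups of 3 libraries. All groups are the same mouse prostate cancer line, taken from lung metastases of genetically engineered NPK mice. The control libraries come from cells labelled as control. The shNsd2 libraries come from cells in which Nsd2, a histone H3 lysine methyltransferase gene, was silenced by shRNA, and the MCTP libraries from cells treated with a compound of that name, a prefix the study uses for an NSD2 inhibitor. The labels number the compound 39, 40 and 41 in MCTP replicates 1, 2 and 3, and a further label of shNsd2 replicates 2 and 3 names other Nsd genes. The study's methods describe a lentiviral shRNA against luciferase as control and more than a single shRNA for each silenced gene. Which shRNA each of these libraries carries is not in the labels, nor is it stated there that the controls hold the luciferase shRNA. For the compound the methods give dose and time in a human cell line and in mice, and none was found for these libraries. A single cancer line was used, so the values describe that line only.

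Mitosis begins when cyclin B and Cdk1, released by Cdc25 phosphatases, drive chromosome condensation and spindle assembly. The spindle checkpoint then holds back the anaphase-promoting complex until every kinetochore is attached, after which separase cuts cohesin and the midzone directs cytokinesis. Most of these genes are transcribed in G2 and mitosis under FoxM1, B-Myb and the MuvB complex, and their summed RNA is often read as a measure of how many cells of a tumour are dividing.

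Each gene has a deposited value per library on a log2 scale, and fold changes are differences of group means on that scale. The values carry no read counts, so depth is unknown. A gene was called where limma gave an adjusted p under 0.05 over all genes tested. Nothing in the labels says that the libraries of a group came from separate cultures, so p-values measure the spread between these libraries, which may be technical. RNA of whole cultures also cannot tell fewer dividing cells from less RNA per cell. Epithelial markers are given as ranges over control, shNsd2 and MCTP libraries in that order. Those of Cdh1 were 11.70 to 11.84, 11.56 to 11.58 and 11.41 to 11.46, of Krt8 16.21 to 16.35, 15.97 to 16.15 and 16.34 to 16.70, of Krt19 16.08 to 16.28, 15.76 to 15.94 and 16.34 to 16.76, of Krt7 14.39 to 14.57, 14.67 to 14.80 and 14.19 to 14.46 and of Krt18 15.25 to 15.47, 15.31 to 15.45 and 15.21 to 15.52. Both treated groups thus lay below control for Cdh1, and apart from control on opposite sides for Krt19. Epcam stayed at or below 3.76 in all groups, under the filter on low values of 3.78. The prostate marker Pbsn is not listed in the table.

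Markers of other cells differed among the groups as well. Of 4 immune markers only Cd68 is listed, with 6.50, 6.51 and 6.60 in control, 6.78, 6.78 and 6.72 in shNsd2 and 7.20, 7.15 and 7.44 in MCTP libraries, and the defining marker Ptprc is not listed. Of 7 fibroblast and mesenchyme markers 4 are listed, and their summed level, nearly all from Vim, was 17.16, 17.26 and 17.23 in control, 17.09, 17.10 and 16.99 in shNsd2 and 17.56, 17.40 and 17.65 in MCTP libraries on the log2 scale. Col1a1, a collagen gene of fibroblasts, went lower where Vim was higher in MCTP libraries, with 8.12 to 8.25 in control, 7.88 to 7.95 in shNsd2 and 7.76 to 7.94 in MCTP libraries. Of 3 basal markers 2 are listed, with Krt14 the more abundant, and their summed level was 8.88, 9.06 and 9.04 in control, 9.80, 9.73 and 9.68 in shNsd2 and 10.10, 9.96 and 10.34 in MCTP libraries. The part of these markers in the results was not tested.

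Some libraries stood apart from others of their group. Across all genes MCTP replicates 1 and 3 correlated at 0.9995, and MCTP replicate 2 with them at 0.998 and 0.996. The difference ran along the GC content of the transcripts. Among the 18 members in the quartile of genes with the lowest GC content, the median distance from the control mean was -0.49 in MCTP replicate 1 and -0.57 in MCTP replicate 3, but -0.15 in MCTP replicate 2. All genes of that quartile lay at -0.22, -0.30 and -0.021 in the same libraries. The control libraries differed along the same axis, with AT-rich members at 0.18 in control replicate 1, -0.0076 in control replicate 2 and -0.15 in control replicate 3. In the shNsd2 libraries they lay at -0.012, -0.062 and 0.097. Counts in MCTP cells against control are therefore given with and without MCTP replicate 2, and each of the 45 genes whose call it changes is named. The same was done for a correction of each library for GC content, a step that also takes out true differences tied to GC content.

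Nsd2, given in the deposited values as Whsc1 (ENSMUSG00000057406.8), served as the check of the labels. Its values were 12.48, 12.43 and 12.42 in the control libraries, 11.56, 11.61 and 11.68 in the shNsd2 libraries and 12.15, 12.21 and 12.07 in the MCTP libraries. All shNsd2 libraries lay below all others, and the MCTP libraries lay between them and the controls with no overlap. The log2 fold change was -0.83 (SE 0.041, adjusted p = 2.26e-06) in shNsd2 and -0.30 (SE 0.054, adjusted p = 0.00562) in MCTP cells by limma. An exact two-sided permutation test gave p = 0.1 for either comparison, the smallest that 3 libraries against 3 allow. After GC correction the difference was -0.77 in shNsd2 cells, which passed the threshold, and -0.12 in MCTP cells, which did not. The MCTP difference was -0.33 without MCTP replicate 2.

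In shNsd2 cells the mitosis genes moved in both directions and by small amounts. Of 45 genes, 14 were higher and 6 lower than in control cells, and 25 did not pass the threshold. The genes that rose included the kinases Aurka and Plk1, the transcription factor Foxm1, the condensin gene Ncapd2 and the separase gene Espl1, and those that fell included the cyclin Ccna2 and the phosphatase Cdc25c. Over all genes tested, 23.1% were called higher and 24.8% lower. The median log2 fold change of the mitosis genes was 0.047, against 0.0020 over all genes, and single genes ranged from -0.24 to 0.31. The groups did not overlap, with shNsd2 higher, at 15 members and, with shNsd2 lower, at 7, where all genes gave 28.1% and 29.1%.

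After GC correction 20 mitosis genes were higher and 6 lower in shNsd2 cells, where the shares of all genes were 27.9% and 28.2%. The correction added calls of Ccnb1 (0.074), Plk4 (0.21), Cenpe (0.25), Ect2 (0.19), Top2a (0.23), Smc2 (0.24) and Ncapg (-0.16), and the call of Prc1 was lost. Without shNsd2 replicate 2 the count of genes called went from 20 to 13, beside 35.6% of all genes. Without control replicate 3 the median log2 fold change was -0.0099, and without control replicate 1 it was 0.12, so its sign rests on the control libraries included. Of the 20 calls, 12 passed the threshold whichever library was left out. Single fits of this kind called 4340 to 6018 of 12205 genes tested. No share of all genes that passed in every fit is available to set beside the 12. The call of the others depended on a library, with the log2 fold change without it in parentheses. Cdc25b lost it without shNsd2 replicate 2 (0.13). Bub1b lost it without control replicate 3 (0.10), shNsd2 replicate 1 (0.13) or shNsd2 replicate 2 (0.12). Cdc20 lost it without control replicate 3 (0.14), shNsd2 replicate 1 (0.14) or shNsd2 replicate 2 (0.15). Pttg1 lost it without control replicate 2 (-0.13). Cenpa lost it without control replicate 2 (-0.14), shNsd2 replicate 2 (-0.16) or shNsd2 replicate 3 (-0.097). Kif20a lost it without control replicate 2 (0.12), control replicate 3 (0.096), shNsd2 replicate 1 (0.12) or shNsd2 replicate 2 (0.11). Prc1 lost it without control replicate 1 (-0.098), control replicate 2 (-0.10), shNsd2 replicate 1 (-0.10) or shNsd2 replicate 2 (-0.11). Anln lost it without control replicate 1 (-0.11), control replicate 2 (-0.12), shNsd2 replicate 1 (-0.12) or shNsd2 replicate 2 (-0.12). Without control replicate 1 further genes passed, namely Plk4 (0.23), Cenpe (0.28), Ect2 (0.21), Top2a (0.23) and Smc2 (0.32), and without control replicate 3 these were Tpx2 (-0.11) and Ncapg (-0.27).

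In MCTP cells most of the mitosis genes that passed the threshold were lower. There were 18 lower, 2 higher and 25 not called, and the lower genes were led by the condensin genes Smc4 and Ncapg, the checkpoint kinase genes Bub1 and Ttk, and the proliferation marker Mki67. The exceptions were Cdc20 and Kif20a, which rose. Over all genes tested, 17.2% were called lower and 18.0% higher. The median log2 fold change of the mitosis genes was -0.19, against -0.0062 over all genes, with a range from -0.69 to 0.24. All MCTP libraries lay below all control libraries at 20 members and above them at 2, beside 24.8% and 25.8% of all genes.

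The count in MCTP cells depended on which libraries entered. Without MCTP replicate 2, 29 mitosis genes were lower and 5 higher, while 30.6% of all genes were lower and 29.8% higher. The number called was 1 without control replicate 1 (19.4% of all genes), 13 without control replicate 3 (20.1%), 2 without MCTP replicate 1 (16.7%) and 4 without MCTP replicate 3 (23.3%). Without control replicate 2 limma called 0 of the 45, although 19 had an unadjusted p under 0.05 and 17.7% of all genes were called. The median log2 fold change lay between -0.22 and -0.16 in these fits. Each of the 20 calls was thus lost in at least 1 fit, whereas 12 of the 20 shNsd2 calls passed in every fit. Smc4 lost its call also without control replicate 1 or MCTP replicate 1. Ncapg, Bub1, Mki67, Ttk and Top2a lost theirs also without control replicate 1, MCTP replicate 1 or MCTP replicate 3. After GC correction 23 genes were lower and 2 higher with a median of -0.15, and 23.0% and 22.6% of all genes were. With GC correction and without MCTP replicate 2, a setting chosen after seeing the data, 30 were lower and 5 higher, beside 30.0% and 29.0% of all genes.

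Without MCTP replicate 2 the genes that passed in addition were Ccna2 (-0.26), Ccnb1 (-0.16), Cdc25b (-0.12), Plk1 (0.13), Aurka (0.17), Bub3 (0.13), Cenpe (-0.56), Cenpf (-0.57), Kif11 (-0.68), Kif4 (-0.28), Nusap1 (-0.51), Prc1 (-0.13), Ect2 (-0.42) and Smc2 (-0.62). After GC correction of all libraries they were Cdc25b (-0.25), Foxm1 (-0.12), Incenp (-0.13), Kif11 (-0.31), Kif2c (-0.13) and Kif4 (-0.20), and the call of Cdc25c was lost. Without MCTP replicate 3, Cdc25b passed as well (-0.21).

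The difference between the treated groups was tested directly. Of the 45 genes, 24 were higher in shNsd2 than in MCTP cells and 1, Pttg1, was lower, with a median difference of 0.22. Over all genes tested, 20.6% were higher and 22.6% lower. After GC correction the counts were 34 and 2, beside 28.0% and 28.5% of all genes. Without MCTP replicate 2 they were 33 and 3, beside 31.6% and 32.1%. The number called was 12 without shNsd2 replicate 1 (29.2% of all genes). It was 13 without MCTP replicate 1 (27.8%), shNsd2 replicate 2 (28.1%) or shNsd2 replicate 3 (28.0%). Both comparisons with control share the control libraries, so their values are given side by side for each gene and not related to each other.

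**Figure D1:**
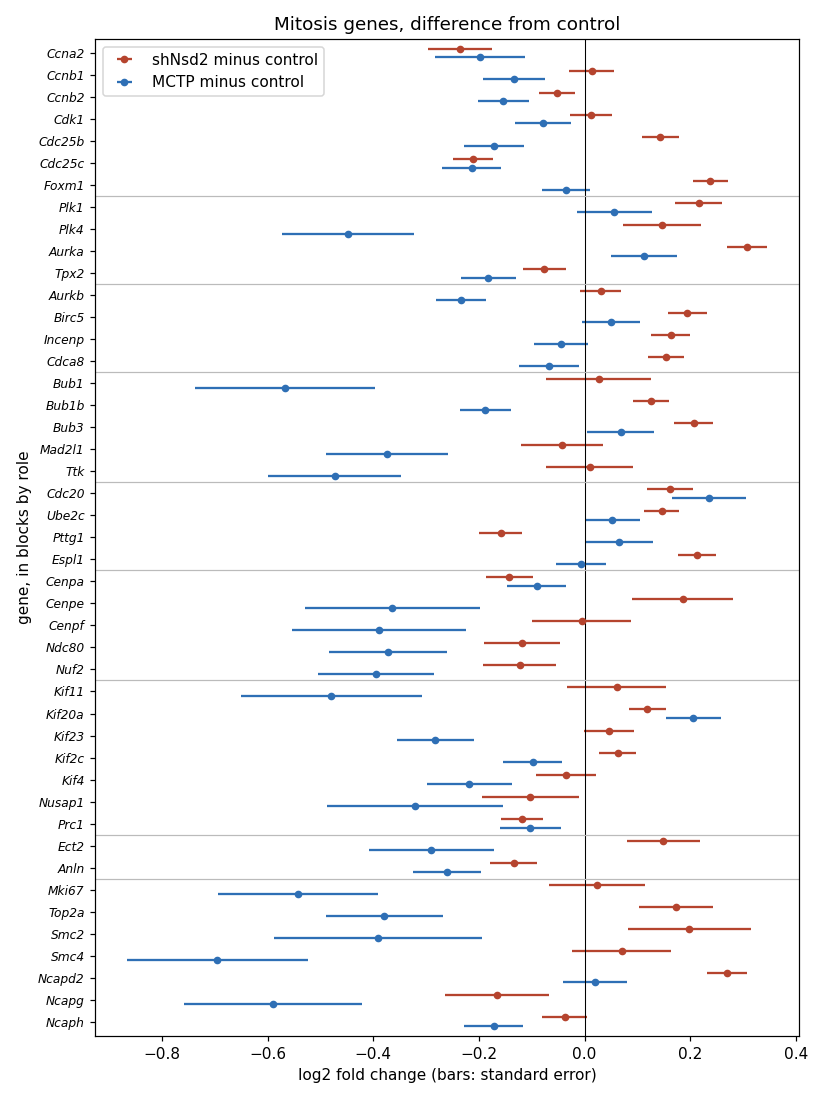
Log2 fold change of each of the 45 mitosis genes against control (x axis, log2 scale) in shNsd2 cells (red) and MCTP cells (blue), in blocks by role on the y axis, with bars of the standard error from limma. Most blue points lie left of 0 with wide bars for the AT-rich genes, and the red points lie on both sides.

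Among the 7 genes of mitotic entry, 2 rose and 2 fell in shNsd2 cells, and 2 fell in MCTP cells. Over all genes the shares called higher and lower were 23.1% and 24.8% in shNsd2 cells, and 17.2% were called lower in MCTP cells. Ccna2 encodes cyclin A, which acts in S phase and G2. Its values were 12.56, 12.35 and 12.32 in the control libraries, 12.16, 12.15 and 12.21 in the shNsd2 libraries and 12.18, 12.34 and 12.11 in the MCTP libraries. Every shNsd2 library lay below every control library, while MCTP replicate 2 lay among the controls. The log2 fold change was -0.24 (SE 0.060, adjusted p = 0.0110) in shNsd2 cells and -0.20 (SE 0.084, adjusted p = 0.0999) in MCTP cells, or -0.26 without MCTP replicate 2, which passed the threshold. Cdc25c, a phosphatase that activates Cdk1, had 10.001, 10.05 and 9.97 in the control libraries, 9.79, 9.80 and 9.79 in the shNsd2 libraries and 9.86, 9.75 and 9.76 in the MCTP libraries. All treated libraries lay below all controls, and the treated groups overlapped each other. It fell by 0.21 in shNsd2 cells (adjusted p = 0.00187) and by 0.21 in MCTP cells (adjusted p = 0.0228). The MCTP difference was -0.19 without MCTP replicate 2 and -0.097 after GC correction, where it did not pass.

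Foxm1 encodes the transcription factor that switches on many G2 and mitosis genes. It stood at 12.92, 12.91 and 12.90 in the control libraries, 13.14, 13.19 and 13.11 in the shNsd2 libraries and 12.90, 12.85 and 12.88 in the MCTP libraries. The shNsd2 libraries lay above the rest by more than the spread of any group, and the MCTP libraries lay just below the controls. Against control the difference was 0.24 (SE 0.033, adjusted p = 0.000530) in shNsd2 and -0.035 (SE 0.045, adjusted p = 0.558) in MCTP cells, and -0.021 without MCTP replicate 2. After GC correction the MCTP value was -0.12 and passed the threshold. Cdk1 and Ccnb1 form the kinase that starts mitosis. Cdk1 had 12.65, 12.60 and 12.52 in the control libraries, 12.61, 12.62 and 12.58 in the shNsd2 libraries and 12.54, 12.48 and 12.52 in the MCTP libraries, and the groups overlapped except that each MCTP library was below each shNsd2 library. Ccnb1 had 12.64, 12.56 and 12.50 in the control libraries, 12.56, 12.55 and 12.62 in the shNsd2 libraries and 12.46, 12.48 and 12.36 in the MCTP libraries, with the MCTP libraries lowest. Their log2 fold changes were 0.012 and 0.013 in shNsd2 and -0.078 and -0.13 in MCTP cells, none past the threshold. Without MCTP replicate 2 the MCTP values were -0.061 and -0.16, and the latter passed. After GC correction they were -0.049 and -0.019, neither past the threshold. Cdc25b, another Cdk1-activating phosphatase, rose in shNsd2 cells (0.14), where its call was lost without shNsd2 replicate 2, and stood at -0.17 in MCTP cells, where it passed as lower without MCTP replicate 2 (-0.12), without MCTP replicate 3 and after GC correction (-0.25). Ccnb2, a B-type cyclin gene, fell in MCTP cells (-0.15, and -0.14 without MCTP replicate 2) and stood at -0.052 in shNsd2 cells.

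Of 4 genes for mitotic kinases and the Aurora A activator Tpx2, 2 rose in shNsd2 cells and 2 fell in MCTP cells. The respective shares of all genes were 23.1% and 17.2%. Aurka encodes the kinase that matures centrosomes and builds the spindle. Its values were 11.45, 11.53 and 11.50 in the control libraries, 11.85, 11.80 and 11.75 in the shNsd2 libraries and 11.63, 11.49 and 11.69 in the MCTP libraries. The shNsd2 libraries were the highest, and MCTP replicate 2 lay within the control range while MCTP replicates 1 and 3 lay above it. The log2 fold change of 0.31 (SE 0.038, adjusted p = 0.000276) in shNsd2 cells was the largest rise among the members there, and in MCTP cells it was 0.11 (SE 0.062, adjusted p = 0.185). The latter was 0.17 without MCTP replicate 2 and passed the threshold. Plk1, a kinase needed from mitotic entry to cytokinesis, had 12.15, 12.24 and 12.15 in the control libraries, 12.45, 12.42 and 12.32 in the shNsd2 libraries and 12.28, 12.10 and 12.34 in the MCTP libraries. Control and shNsd2 libraries did not overlap, and the MCTP libraries spread from below the controls to the shNsd2 range. Plk1 changed by 0.22 (SE 0.045, adjusted p = 0.00419) in shNsd2 cells. In MCTP cells it was 0.056 (SE 0.071, adjusted p = 0.553), 0.13 without MCTP replicate 2, where it passed, and -0.040 after GC correction. Plk4, the kinase of centriole duplication, fell in MCTP cells (-0.45, and -0.59 without MCTP replicate 2) and stood at 0.15 in shNsd2 cells. After GC correction its values in MCTP and shNsd2 cells were -0.28 and 0.21, both past the threshold. Tpx2 fell in MCTP cells (-0.18, and -0.19 without MCTP replicate 2) and stood at -0.076 in shNsd2 cells.

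The chromosomal passenger complex corrects faulty attachments and joins Aurora B to Incenp, survivin and borealin. Of its 4 genes, 3 rose in shNsd2 cells and 1 fell in MCTP cells, beside 23.1% and 17.2% of all genes. The kinase gene Aurkb had 11.52, 11.53 and 11.51 in the control libraries, 11.58, 11.59 and 11.48 in the shNsd2 libraries and 11.33, 11.24 and 11.29 in the MCTP libraries. Every MCTP library was below every other library, and the control and shNsd2 groups overlapped. Its log2 fold change was 0.030 (SE 0.038, adjusted p = 0.539) in shNsd2 and -0.23 (SE 0.048, adjusted p = 0.00898) in MCTP cells, and the latter was -0.21 without MCTP replicate 2 and -0.29 after GC correction. The direct difference, shNsd2 minus MCTP, was 0.26 (SE 0.051, adjusted p = 0.00537). In shNsd2 cells Birc5, the survivin gene, rose by 0.19, Incenp by 0.16 and Cdca8, the borealin gene, by 0.15. In MCTP cells these stood at 0.051, -0.044 and -0.068, none past the threshold, though Incenp passed as lower after GC correction (-0.13).

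Of the 5 spindle checkpoint genes, 2 rose in shNsd2 cells and 4 fell in MCTP cells, beside 23.1% and 17.2% of all genes. Bub1b encodes BubR1, a part of the complex that inhibits the anaphase-promoting complex. It had 11.85, 11.82 and 11.77 in the control libraries, 11.94, 11.94 and 11.93 in the shNsd2 libraries and 11.67, 11.60 and 11.60 in the MCTP libraries. The groups separated fully, with shNsd2 on top and MCTP at the bottom. Bub1b changed by 0.13 (SE 0.034, adjusted p = 0.0144) in shNsd2 cells and -0.19 (SE 0.049, adjusted p = 0.0225) in MCTP cells, -0.18 without MCTP replicate 2, and the direct difference was 0.31 (SE 0.043, adjusted p = 0.00127). Mad2l1, whose product Mad2 carries the checkpoint signal, had 12.03, 11.80 and 11.70 in the control libraries, 11.78, 11.73 and 11.88 in the shNsd2 libraries and 11.40, 11.69 and 11.31 in the MCTP libraries. Control and shNsd2 libraries overlapped, and MCTP replicate 2 lay just under the lowest control. Its log2 fold change was -0.043 (SE 0.078, adjusted p = 0.675) in shNsd2 cells, 0.0023 after GC correction, and -0.37 (SE 0.12, adjusted p = 0.0392) in MCTP cells. The MCTP value was -0.48 without MCTP replicate 2 and -0.17 after GC correction.

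Bub1 and Ttk encode kinases that recruit the checkpoint proteins to kinetochores. Bub1 had 10.48, 10.23 and 10.05 in the control libraries, 10.26, 10.19 and 10.39 in the shNsd2 libraries and 9.56, 10.06 and 9.44 in the MCTP libraries. MCTP replicates 1 and 3 were far below the rest, whereas MCTP replicate 2 lay just above the lowest control, so the groups overlapped. Ttk had 9.41, 9.23 and 9.06 in the control libraries, 9.21, 9.19 and 9.33 in the shNsd2 libraries and 8.68, 9.01 and 8.60 in the MCTP libraries, with MCTP replicates 1 and 3 lowest and no overlap between MCTP and control. In MCTP cells Bub1 changed by -0.57 (SE 0.17, adjusted p = 0.0360) and Ttk by -0.47 (SE 0.13, adjusted p = 0.0241), and in shNsd2 cells they stood at 0.026 and 0.0092. Without MCTP replicate 2 the MCTP values were -0.75 and -0.60, and after GC correction -0.38 and -0.33. Bub3, the partner of Bub1 and BubR1, rose by 0.21 in shNsd2 cells and stood at 0.068 in MCTP cells, or 0.13 without MCTP replicate 2, where it passed.

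**Figure D2:**
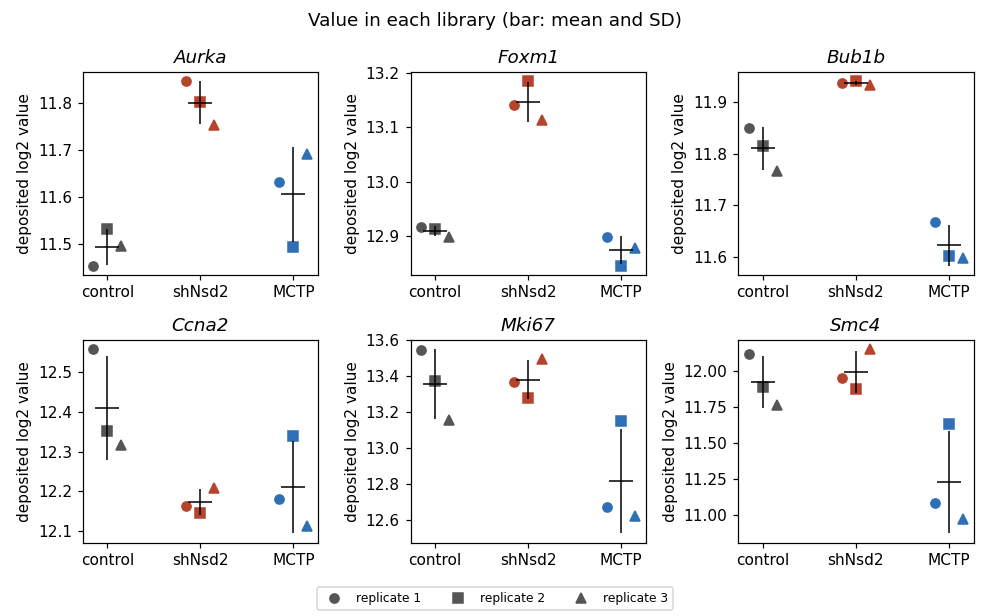
Deposited log2 value (y axis) of Aurka, Foxm1, Bub1b, Ccna2, Mki67 and Smc4 in each control, shNsd2 and MCTP library, with replicate numbers as symbols and bars for the mean and SD of 3 libraries. The y axes do not start at 0. MCTP replicate 2 lies nearer the controls than the other MCTP libraries for Mki67, Smc4 and Aurka.

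All 4 genes of anaphase onset passed the threshold in shNsd2 cells, 3 higher and 1 lower, beside 23.1% and 24.8% of all genes. Of these 4 calls, 2 passed whichever library was left out. In MCTP cells 1 rose, beside 18.0% of all genes, and its call did not pass in every such fit. Cdc20 activates the anaphase-promoting complex. It had 12.42, 12.47 and 12.38 in the control libraries, 12.64, 12.61 and 12.51 in the shNsd2 libraries and 12.69, 12.53 and 12.76 in the MCTP libraries. Both treated groups lay above the controls and overlapped each other. Cdc20 changed by 0.16 (SE 0.044, adjusted p = 0.0142) in shNsd2 and 0.24 (SE 0.069, adjusted p = 0.0341) in MCTP cells, 0.30 without MCTP replicate 2. After GC correction its values in shNsd2 and MCTP cells were 0.12 and 0.14, both past the threshold. Pttg1 encodes securin, which holds separase inactive, and Espl1 encodes separase itself. Pttg1 had 10.01, 10.12 and 10.05 in the control libraries, 9.92, 9.89 and 9.89 in the shNsd2 libraries and 10.16, 10.02 and 10.19 in the MCTP libraries, and Espl1 had 11.14, 11.13 and 11.12 in the control libraries, 11.35, 11.38 and 11.29 in the shNsd2 libraries and 11.15, 11.08 and 11.14 in the MCTP libraries. Securin was lowest and separase highest in the shNsd2 libraries, each without overlap with control. Pttg1 changed by -0.16 (SE 0.041, adjusted p = 0.0118) and Espl1 by 0.21 (SE 0.036, adjusted p = 0.00135) in shNsd2 cells. In MCTP cells they stood at 0.066 and -0.0069, neither past the threshold, and at 0.12 and 0.015 without MCTP replicate 2. Ube2c, the ubiquitin-conjugating enzyme of the complex, rose by 0.15 in shNsd2 cells and stood at 0.053 in MCTP cells, or -0.041 after GC correction.

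Of 5 centromere and kinetochore genes, 1 fell in shNsd2 cells and 2 in MCTP cells, beside 24.8% and 17.2% of all genes. Cenpa encodes the histone H3 variant that marks the centromere. It had 11.81, 11.80 and 11.76 in the control libraries, 11.71, 11.68 and 11.56 in the shNsd2 libraries and 11.76, 11.61 and 11.73 in the MCTP libraries. The shNsd2 libraries lay below the controls, and the MCTP libraries overlapped both. The log2 fold change was -0.14 (SE 0.045, adjusted p = 0.0266) in shNsd2 and -0.091 (SE 0.056, adjusted p = 0.228) in MCTP cells. Ndc80 and Nuf2, which bind microtubules together, fell in MCTP cells (-0.37 and -0.39, or -0.48 and -0.50 without MCTP replicate 2) and stood at -0.12 and -0.12 in shNsd2 cells. After GC correction their MCTP values were -0.21 and -0.22, both past the threshold. The motor gene Cenpe and the kinetochore gene Cenpf stood at -0.36 and -0.39 in MCTP cells and did not pass. Without MCTP replicate 2 they were -0.56 and -0.57, and both passed. After GC correction they were -0.22 and -0.25, and neither passed. In shNsd2 cells they stood at 0.19 and -0.0057, or 0.25 and 0.056 after GC correction, where Cenpe passed.

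Of 7 genes for kinesins and the spindle midzone, 1 rose and 1 fell in shNsd2 cells, and 1 rose and 1 fell in MCTP cells. The shares of all genes were 23.1% and 24.8% in shNsd2 cells and 18.0% and 17.2% in MCTP cells. Kif20a encodes a kinesin of the midzone and cytokinesis. It had 12.66, 12.64 and 12.58 in the control libraries, 12.74, 12.76 and 12.73 in the shNsd2 libraries and 12.89, 12.78 and 12.82 in the MCTP libraries. The groups separated, with MCTP highest and control lowest. Kif20a changed by 0.12 (SE 0.034, adjusted p = 0.0197) in shNsd2 and 0.21 (SE 0.052, adjusted p = 0.0204) in MCTP cells, 0.23 without MCTP replicate 2. Kif23, a centralspindlin motor gene, fell in MCTP cells (-0.28, and -0.34 without MCTP replicate 2) and stood at 0.047 in shNsd2 cells. Prc1, which bundles midzone microtubules, fell in shNsd2 cells (-0.12), did not pass there after GC correction (-0.058), and stood at -0.10 in MCTP cells. There it was -0.13 without MCTP replicate 2, where it passed, and 0.036 after GC correction. Kif11, the motor that separates the spindle poles, stood at -0.48 in MCTP cells and at -0.68 without MCTP replicate 2 and -0.31 after GC correction, where it passed each time. Kif2c, Kif4 and Nusap1 stood at -0.098, -0.22 and -0.32 in MCTP cells. They were -0.059, -0.28 and -0.51 without MCTP replicate 2, where Kif4 and Nusap1 passed, and -0.13, -0.20 and -0.15 after GC correction, where Kif2c and Kif4 passed. In shNsd2 cells Kif11, Kif2c, Kif4 and Nusap1 stood at 0.061, 0.063, -0.036 and -0.10.

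Of the cytokinesis genes, Anln encodes anillin, a scaffold of the contractile ring. It had 13.69, 13.66 and 13.57 in the control libraries, 13.48, 13.47 and 13.57 in the shNsd2 libraries and 13.37, 13.48 and 13.30 in the MCTP libraries. The treated libraries of either kind reached no higher than the lowest control. Anln changed by -0.13 (SE 0.044, adjusted p = 0.0333) in shNsd2 and -0.26 (SE 0.064, adjusted p = 0.0185) in MCTP cells, -0.31 without MCTP replicate 2. After GC correction its values in shNsd2 and MCTP cells were -0.080 and -0.17, both past the threshold. Ect2, the exchange factor that activates RhoA at the midzone, stood at 0.15 in shNsd2 and -0.29 in MCTP cells, neither past the threshold. The MCTP value was -0.42 without MCTP replicate 2, where it passed, and -0.092 after GC correction, where it did not. The shNsd2 value after GC correction was 0.19 and passed.

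The 7 genes of chromosome structure had 5 falls in MCTP cells and 1 rise in shNsd2 cells, beside 17.2% and 23.1% of all genes. Of the 5 falls, 0 passed whichever library was left out. Smc4 is a core subunit of both condensins. Its values were 12.12, 11.89 and 11.77 in the control libraries, 11.95, 11.88 and 12.15 in the shNsd2 libraries and 11.08, 11.64 and 10.97 in the MCTP libraries. MCTP replicates 1 and 3 lay far below all others, MCTP replicate 2 lay below the lowest control, and control and shNsd2 libraries overlapped. Smc4 changed by -0.69 (SE 0.17, adjusted p = 0.0184) in MCTP cells, the largest fall among the members, and 0.070 (SE 0.094, adjusted p = 0.564) in shNsd2 cells. The MCTP value was -0.90 without MCTP replicate 2 and -0.50 after GC correction. Ncapg, a subunit of condensin I, had 10.78, 10.51 and 10.34 in the control libraries, 10.38, 10.28 and 10.48 in the shNsd2 libraries and 9.84, 10.32 and 9.71 in the MCTP libraries. Its MCTP libraries lay below the controls, MCTP replicate 2 only just. It changed by -0.59 (SE 0.17, adjusted p = 0.0307) in MCTP cells, or -0.77 without MCTP replicate 2, and by -0.17 (SE 0.099, adjusted p = 0.195) in shNsd2 cells. After GC correction the values in MCTP and shNsd2 cells were -0.34 and -0.16, both past the threshold.

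Ncapd2, another condensin I subunit, rose in shNsd2 cells. It had 13.38, 13.37 and 13.35 in the control libraries, 13.67, 13.66 and 13.58 in the shNsd2 libraries and 13.45, 13.27 and 13.44 in the MCTP libraries. The shNsd2 libraries were above all others, and MCTP replicate 2 was below the controls while MCTP replicates 1 and 3 were above them. The log2 fold change was 0.27 (SE 0.037, adjusted p = 0.000484) in shNsd2 and 0.020 (SE 0.061, adjusted p = 0.812) in MCTP cells, with 0.077 without MCTP replicate 2 and -0.058 after GC correction. Mki67, which encodes the Ki-67 protein that coats mitotic chromosomes, had 13.54, 13.37 and 13.16 in the control libraries, 13.37, 13.28 and 13.49 in the shNsd2 libraries and 12.67, 13.15 and 12.62 in the MCTP libraries. MCTP replicate 2 lay just under the lowest control, the other MCTP libraries far lower, and the shNsd2 libraries inside the control range. Mki67 changed by -0.54 (SE 0.15, adjusted p = 0.0285) in MCTP cells, -0.71 without MCTP replicate 2 and -0.49 after GC correction, and by 0.024 (SE 0.091, adjusted p = 0.849) in shNsd2 cells. Top2a, the topoisomerase that untangles sister chromatids, had 14.02, 13.91 and 13.77 in the control libraries, 14.07, 13.98 and 14.18 in the shNsd2 libraries and 13.47, 13.75 and 13.35 in the MCTP libraries. Its MCTP libraries lay below the controls, and its shNsd2 libraries overlapped them. Top2a changed by -0.38 (SE 0.11, adjusted p = 0.0330) in MCTP cells, -0.49 without MCTP replicate 2, and by 0.17 (SE 0.070, adjusted p = 0.0692) in shNsd2 cells. After GC correction its values in MCTP and shNsd2 cells were -0.24 and 0.23, both past the threshold. Ncaph fell in MCTP cells (-0.17, and -0.15 without MCTP replicate 2) and Smc2 stood at -0.39, or -0.62 without MCTP replicate 2, where it passed. After GC correction the MCTP values of Ncaph and Smc2 were -0.16, which passed, and -0.19, which did not. In shNsd2 cells these genes stood at -0.037 and 0.20.

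The GC content of the longest transcript moved with these differences. The members had a median of 46.6% GC, from 34.8% to 56.1%, against 49.8% over all genes. Across the 45 genes, which are not independent replicates, Pearson's r between GC content and log2 fold change was 0.75 in MCTP cells and 0.47 in shNsd2 cells, and over all genes it was 0.41 and 0.22. After GC correction the members' r was 0.41 and 0.27, and over all genes it was 0.036 and 0.026. In MCTP cells 10 of the 18 members in the quartile of lowest GC content fell, with a median of -0.38 where 27.8% of all genes of that quartile were lower and their median was -0.18. In shNsd2 cells all 6 members of the quartile of highest GC content, Foxm1, Plk1, Incenp, Cdc20, Ube2c and Espl1, rose, with a median of 0.19 where 36.8% of all genes of that quartile were higher and their median was 0.063. The cause of the relation to GC content was not tested.

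**Figure D3:**
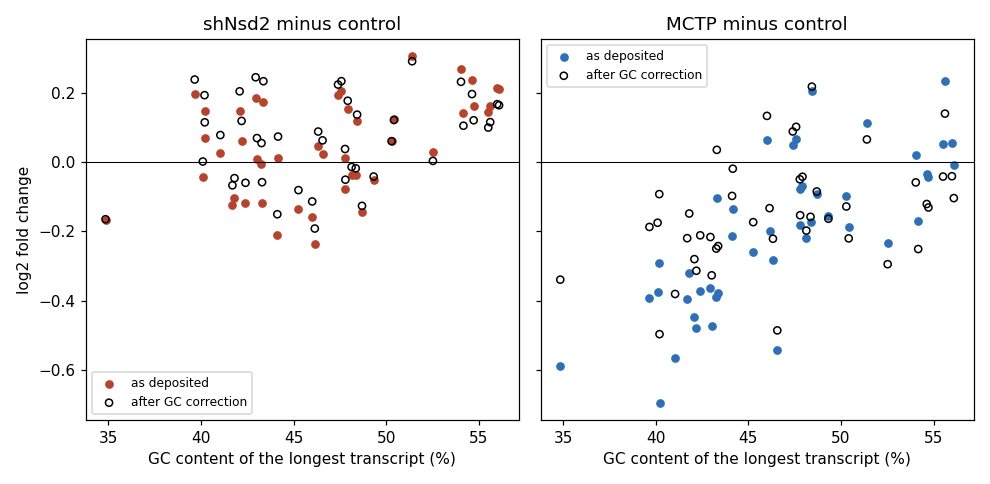
Log2 fold change of the 45 mitosis genes (y axis) against the GC content of their longest transcript in percent (x axis) in shNsd2 and MCTP cells, as deposited (filled) and after GC correction (open). In MCTP cells the AT-rich genes lie lowest (r = 0.75), and the correction moves them toward 0.

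A wider list of 108 other mitosis genes had 103 in the table, where Anapc15, Spdl1, Ska2, Ska3 and Mis18a are not listed. In shNsd2 cells 21 higher and 7 lower were called, with a median log2 fold change of 0.028. Over all genes tested the shares were 23.1% and 24.8% and the median 0.0020. Of the 103, 16 passed the threshold whichever library was left out, with no matching share of all genes available. After GC correction 41 were higher and 13 lower, beside 27.9% and 28.2% of all genes, and the cohesin genes called higher went from 1 to 8. The subunits and inhibitors of the anaphase-promoting complex had 6 higher and 2 lower of 15, led by Anapc13 (-0.24). Other checkpoint and outer kinetochore genes had 3 higher of 14, led by Mad1l1 (0.19). Inner centromere genes had 3 higher and 2 lower of 17, led by Cenpt (-0.29), and cohesin genes 1 higher and 1 lower of 13, led by Cdca5 (0.27), which encodes sororin. Other kinesins had 2 higher of 8, led by Kif18b (0.23), and other mitotic kinases 1 higher and 1 lower of 7, led by Haspin (0.23). Centrosome genes had 1 lower of 13, namely Dlgap5 (-0.15), and other cytokinesis genes 1 higher of 3, namely Racgap1 (0.11). Among regulators of the DREAM and MuvB complexes 4 higher of 10 were called, led by Mybl2 (0.40), the B-Myb gene. Of the 3 condensin II genes limma called 0, and 0 had an unadjusted p under 0.05. After GC correction 1 of the 3 was higher and 1 lower.

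In MCTP cells 3 higher and 31 lower of the 103 were called, with a median of -0.16, beside 18.0% and 17.2% of all genes. Of these calls, 10 passed the threshold whichever library was left out, with no matching share of all genes available. There were 13 higher and 58 lower without MCTP replicate 2, beside 29.8% and 30.6%. After GC correction there were 6 higher and 40 lower, beside 22.6% and 23.0%. Cohesin genes had 9 lower of 13, led by Stag1 (-0.62), and a subgroup median of -0.46. Of these 9 calls, 2 passed whichever library was left out, and that of Stag1 did not. Centrosome genes had 1 higher and 5 lower of 13, led by Aspm (-0.61), and inner centromere genes 1 higher and 4 lower of 17. Other kinesins had 4 lower of 8, led by Kif15 (-0.57), and other mitotic kinases 2 lower of 7, led by Pbk (-0.36). Checkpoint and outer kinetochore genes had 1 higher and 2 lower of 14, led by Kntc1 (-0.41), and the DREAM and MuvB regulators 2 lower of 10, led by Rbl1 (-0.42). Cytokinesis, condensin II and the anaphase-promoting complex had 1, 1 and 1 called, all lower, namely Cit (-0.36), Ncapd3 (-0.33) and Anapc1 (-0.19).

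Genes of S phase, a list of 28 given for context, had 14 higher and 1 lower in shNsd2 cells with a median of 0.11, and 18 higher and 1 lower after GC correction. All genes gave 23.1% and 24.8%, and 27.9% and 28.2% after the correction. Of the 28 genes, 10 passed in shNsd2 cells whichever library was left out. In MCTP cells 1 higher and 11 lower were called with a median of -0.15, beside 18.0% and 17.2% of all genes. Of these calls, 4 passed the threshold whichever library was left out. Neither count has a matching share of all genes available. There were 1 higher and 13 lower without MCTP replicate 2, where all genes gave 29.8% and 30.6%, and 2 higher and 15 lower after GC correction, where all genes gave 22.6% and 23.0%.

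The promoters of the members were read for letters bound by regulators of mitosis genes. RefSeq promoters of GRCm38.p6, from 250 bases before to 50 after the start, were found for 37 of the 45 genes. Ccna2, Cdc25c, Foxm1, Tpx2, Aurkb, Incenp, Kif20a and Smc4 were not matched. On either strand, TTTGAA, the element of the MuvB complex, was in a promoter of 26 of 37 members (70.3%, against 20.2% of 27025 genes). Over all 32851 promoters of the same length, 17.9% held it. The related TTCGAA was in 4 of 37 members (10.8%, against 1.80% of 27025 genes) and in 1.56% of all promoters. The box CCAAT was in 27 of 37 members (73.0%, against 41.1% of 27025 genes) and in 37.4% of all promoters. Both the MuvB element and the box were in 23 of 37 members (62.2%, against 7.97% of 27025 genes) and in 6.95% of all promoters. The motifs differ in their letters, so no run counts as more than a single motif. A match is a description and not a bound site.

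Among genes with both motifs in the promoter, Aurka and Ncapd2 had the largest differences in shNsd2 cells (0.31 and 0.27), and Ncapg and Mki67 in MCTP cells (-0.59 and -0.54). Their promoters are shown 5′ to 3′ in the direction of the gene, chosen for holding both motifs and for their differences, with the MuvB element and the CCAAT box, read on either strand, in capitals. In GRCm38.p6 they lie at chr2:172370521-172370820 (- strand) for Aurka, chr6:125191537-125191836 (- strand) for Ncapd2, chr5:45669675-45669974 (+ strand) for Ncapg and chr7:135716330-135716629 (- strand) for Mki67.
Aurka: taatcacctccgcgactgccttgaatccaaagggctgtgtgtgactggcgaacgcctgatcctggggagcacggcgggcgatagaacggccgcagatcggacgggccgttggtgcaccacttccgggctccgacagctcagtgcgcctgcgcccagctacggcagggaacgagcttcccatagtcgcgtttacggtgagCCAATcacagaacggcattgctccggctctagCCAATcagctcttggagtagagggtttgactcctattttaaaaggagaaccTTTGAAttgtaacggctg
Ncapd2: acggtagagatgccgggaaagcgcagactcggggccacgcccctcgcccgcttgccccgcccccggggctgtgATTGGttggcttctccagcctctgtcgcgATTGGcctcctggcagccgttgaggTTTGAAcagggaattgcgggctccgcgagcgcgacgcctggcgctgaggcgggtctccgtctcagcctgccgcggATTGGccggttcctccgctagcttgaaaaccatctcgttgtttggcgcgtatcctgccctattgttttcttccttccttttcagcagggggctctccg
Ncapg: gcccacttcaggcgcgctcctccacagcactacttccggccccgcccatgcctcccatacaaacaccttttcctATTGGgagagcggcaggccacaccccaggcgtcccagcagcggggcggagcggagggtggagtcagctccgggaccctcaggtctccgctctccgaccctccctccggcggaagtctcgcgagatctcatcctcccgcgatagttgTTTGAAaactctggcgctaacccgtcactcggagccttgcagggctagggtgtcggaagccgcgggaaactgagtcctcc
Mki67: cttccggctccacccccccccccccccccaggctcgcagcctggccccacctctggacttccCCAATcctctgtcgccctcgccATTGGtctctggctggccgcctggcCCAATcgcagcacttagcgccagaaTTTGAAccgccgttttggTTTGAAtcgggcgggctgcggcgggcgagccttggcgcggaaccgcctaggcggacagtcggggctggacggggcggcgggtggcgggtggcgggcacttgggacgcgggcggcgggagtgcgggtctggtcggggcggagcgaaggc
TTTGAA began at base 283 of the Aurka run, base 128 of Ncapd2, base 221 of Ncapg and base 135 of Mki67, which held it 2 times.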

How the data were processed

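The authors deposited a log2-scale value per gene and library. The table's transform is not named. The study's methods describe variance stabilization with DESeq2 for sorted cells and do not say whether it was used here, and the submitters' processing notes list TopHat, Cufflinks, DESeq, DESeq2 and mm9 without their roles. The table has 12 value columns, of which 3 matched no sample and were not used. Groups and replicate numbers came from the titles. A gene was tested if at least 3 of 6 libraries exceeded 3.78, the middle of the lowest 10% of values. The test was limma 3.58.1 under R 4.3.3, eBayes with trend, and Benjamini-Hochberg adjustment over all genes at 0.05, two-sided: 12205, 12216 and 12217 genes. Because the values are log2 and not counts, the test planned for log2 values was used. Single values used exact permutation tests. GC content came from the longest GENCODE transcript for 97.4% of genes, with lowess (span 0.3) in each library. Procedures were tested on simulated data, where the share of small changes recovered, of a size that only Aurka of the 45 members exceeds in shNsd2 cells, fell short of the level first required, which was then dropped. A gene not called may therefore have changed.

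The genes given in every library were Nsd2, the genes Mki67, Top2a, Cdk1, Ccnb1, Plk1, Aurka, Aurkb, Bub1b, Mad2l1 and Foxm1, and in each comparison with control the 5 largest rises and falls past the threshold. Members and lists were chosen with earlier results of these data known.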

Additional observations from a re-analysis of the deposited data

How the results depend on the processing

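With each library left out in turn, 13 to 23 mitosis genes were called in shNsd2 against control, 0 to 34 in MCTP against control and 12 to 36 in shNsd2 against MCTP. The members' median log2 fold change ran from -0.0099 to 0.12, -0.22 to -0.16 and 0.20 to 0.23, and the number of all genes called from 4340 to 6018, 2046 to 7384 and 3391 to 7781. The median in shNsd2 was 0.079 with GC correction and 0.076 with GC and length correction. In MCTP it was -0.15 with median centring, -0.15 with GC correction, -0.14 with GC and length correction and -0.16 with GC correction without MCTP replicate 2, where 35 mitosis genes and 7043 of all genes were called. Between shNsd2 and MCTP it was 0.20 with quantile normalization, 0.20 with median centring, 0.19 with GC correction, 0.20 with GC and length correction and 0.20 with GC correction without MCTP replicate 2, where 38 and 8119 were called. Length corrections and the joint setting were chosen after seeing the data. The causes were not tested.

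With the replicate number as a replicate block, 16, 15 and 16 mitosis genes were called. Of all genes, 4515 of 12205, 3399 of 12216 and 3794 of 12217 were called. In MCTP against control 0 members were higher and 15 lower in that fit, so the calls of Cdc20 and Kif20a were lost. In shNsd2 against MCTP 16 were higher and 0 lower, so the call of Pttg1 was lost. Deviations of same-numbered libraries correlated at -0.25, -0.18 and -0.36 on average in the respective comparisons, with single pairs up to 0.61, so the numbers were not taken to pair libraries.

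Some members near 0 changed sign. With median centring in shNsd2 against control these were Cenpf 0.012. With GC correction in shNsd2 against control these were Cenpf 0.056, Mad2l1 0.00226. With length correction in shNsd2 against control these were Cenpf 0.028. With GC and length correction in shNsd2 against control these were Aurkb -0.00316, Cenpf 0.066, Mad2l1 0.022. With quantile normalization in MCTP against control these were Espl1 0.016. With median centring in MCTP against control these were Espl1 0.027. With GC correction in MCTP against control these were Ncapd2 -0.058, Plk1 -0.040, Prc1 0.036, Ube2c -0.041. With length correction in MCTP against control these were Espl1 0.095, Foxm1 0.00520. With GC and length correction in MCTP against control these were Ncapd2 -0.039, Plk1 -0.071, Prc1 0.030, Ube2c -0.072. With GC correction without MCTP replicate 2 in MCTP against control these were Cdca8 0.00668, Ncapd2 -0.040, Plk1 -0.014, Prc1 0.061, Ube2c -0.051. With quantile normalization in shNsd2 against MCTP these were Cdc25c -0.020. With median centring in shNsd2 against MCTP these were Cdc25c -0.014. With GC correction in shNsd2 against MCTP these were Cdc25c -0.053. With GC and length correction in shNsd2 against MCTP these were Cdc20 0.00599, Cdc25c -0.038. With GC correction without MCTP replicate 2 in shNsd2 against MCTP these were Cdc25c -0.12. Of all these only Cdc25c passed the threshold after the change of sign, as lower in this last fit (adjusted p = 0.0188). With a library left out the ranges were Cenpf -0.11 to 0.097, Kif4 -0.090 to 0.022, Mad2l1 -0.12 to 0.050, Nusap1 -0.19 to 0.0036, Bub1 -0.077 to 0.14, Ccnb1 -0.020 to 0.048, Cdk1 -0.021 to 0.044, Kif11 -0.013 to 0.17, Mki67 -0.077 to 0.12, Smc4 -0.0099 to 0.17, Ttk -0.076 to 0.097 in shNsd2 against control. In MCTP against control they were Ncapd2 -0.011 to 0.077, Espl1 -0.022 to 0.015. In shNsd2 against MCTP they were Ccna2 -0.087 to 0.027, Cdc25c -0.019 to 0.038, Prc1 -0.052 to 0.015. Median centring moved the share of higher calls among all genes in MCTP from 51.1% to 59.7%. Without counts, depth sets no limit that could be computed.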
